A study of Homo sapiens with 27 samples.

Results

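The 9 genes described here serve antigen presentation, and were followed in U2OS cells, a human osteosarcoma line, while MMP2 was depleted and while the cultures grew past confluence. They were 5 genes of the MHC class I pathway (HLA-B, HLA-C, HLA-E, HLA-F and B2M) and 4 of the class II pathway (HLA-DPA1, HLA-DRA, HLA-DMA and CD74), taken by symbol from the 55882 gene symbols of the count files. In these data B2M, HLA-B, HLA-C and HLA-F rose from day −2 to day +2 in all 3 lines, and in control between day 0 and day +2, while HLA-E fell before it rose. The class II genes were near the limit of detection, and HLA-DPA1 was 2.35-fold to 2.63-fold higher in the MMP2sh1 line than in control at each of the 3 days, whereas no HLA-DPA1 difference to control was called in the MMP2sh2 line.

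MHC class I molecules are carried by nearly all nucleated cells. A heavy chain, such as the products of HLA-B and HLA-C or of the less variable HLA-E and HLA-F, pairs with beta-2-microglobulin, the product of B2M, and displays peptides made by the proteasome and carried into the endoplasmic reticulum by the TAP transporter to CD8+ T cells and to receptors of natural killer cells. MHC class II molecules are pairs of an alpha and a beta chain that display peptides from endosomes to CD4+ T cells, and are mainly a feature of professional antigen presenting cells. HLA-DPA1 and HLA-DRA encode alpha chains, CD74 encodes the invariant chain that occupies the groove during transport, and HLA-DMA encodes a chain of the HLA-DM molecule that exchanges the remnant of the invariant chain for peptide. NLRC5 and CIITA are the transactivators of class I and class II genes, and interferon gamma, acting in part through IRF1, raises both.

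The RNA-Seq series holds 27 libraries of poly(A) RNA from 3 stable lines at 3 days, with 3 replicates in each of the 9 groups. The control line carried the empty pLKO.1 vector (the labels call it WT), and MMP2sh1 and MMP2sh2 carried pLKO.1 with 1 of 2 hairpins against MMP2, the gene of a secreted matrix metalloprotease that the study also places in the nucleus. All lines were therefore lentivirally transduced, and all grew in medium with serum, in which MMP-2 protein stayed abundant according to the study. RNA was taken before confluence (day −2), on reaching it (day 0) and after it was passed (day +2). The study describes independent biological replicates of stable lines, and mentions no cloning. Each hairpin was thus seen in 1 line, so that an effect of MMP2 depletion and any other difference between the lines cannot be told apart, and the comparisons of both hairpin lines with control share the control libraries.

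MMP2 read counts followed the labels. The log2 fold change of MMP2 to control was −2.53, −2.47 and −2.34 in MMP2sh1, in the order of the days, and −0.70, −1.06 and −0.82 in MMP2sh2, all called by the quasi-likelihood test of edgeR at a Benjamini-Hochberg adjusted p under 0.05, the rule behind every call below that names no other tool. Total counts on genes were 33580129 to 59374327 per library. Of 9 osteosarcoma and mesenchymal markers, VIM, SPARC, COL1A1, RUNX2, SPP1 and ALPL were detected in every library. IBSP had no read in any, TWIST1 none in 25 libraries and COL1A2 none in 6. Of 12 leukocyte markers, 10 had a mean level under 0.5 CPM (reads per gene scaled to library size). Only some of them mark cells that carry class II molecules, and CD3E, a T cell marker, had no read in 26 of the 27 libraries. Of 7 epithelial markers, KRT8, KRT18, CLDN4 and EPCAM were detected in every library. Their group means were 236 to 550, 112 to 178, 24.3 to 47.7 and 3.20 to 6.02 CPM. KRT19 had no read in 14 libraries, ESRP1 none in 2 and CDH1 none in 1. In bulk RNA, fewer cells that express a gene and less of its RNA per cell cannot be told apart.

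Where RefSeq gives an entry, the promoters of the class I members share short exact matches that those of the class II members hold only in part. The windows shown here are the 170 bases before the RefSeq transcription start on GRCh38.p14, 5′ to 3′ on the strand of the gene, and were chosen because B2M, HLA-B, HLA-C and HLA-F moved together over the expansion whereas HLA-DPA1 differed between lines. Capitals mark matches to CTGATTGG, the inverted CCAAT motif of the Y box that NF-Y binds, and to TTTCNNTT, the core of an interferon-stimulated response element, on either strand.
HLA-B (chr6:31357180-31357349, minus strand): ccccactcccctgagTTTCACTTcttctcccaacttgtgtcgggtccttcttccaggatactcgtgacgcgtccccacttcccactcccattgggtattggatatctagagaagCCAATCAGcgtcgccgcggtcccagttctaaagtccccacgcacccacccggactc
HLA-C (chr6:31272093-31272262, minus strand): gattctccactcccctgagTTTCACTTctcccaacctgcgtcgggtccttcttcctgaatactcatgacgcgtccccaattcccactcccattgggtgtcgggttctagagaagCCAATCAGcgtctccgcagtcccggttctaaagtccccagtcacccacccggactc
HLA-F (chr6:29723264-29723433, plus strand): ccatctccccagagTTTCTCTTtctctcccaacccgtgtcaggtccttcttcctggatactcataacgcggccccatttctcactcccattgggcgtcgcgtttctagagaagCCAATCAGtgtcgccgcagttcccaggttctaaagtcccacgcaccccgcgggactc
B2M (chr15:44711347-44711516, plus strand): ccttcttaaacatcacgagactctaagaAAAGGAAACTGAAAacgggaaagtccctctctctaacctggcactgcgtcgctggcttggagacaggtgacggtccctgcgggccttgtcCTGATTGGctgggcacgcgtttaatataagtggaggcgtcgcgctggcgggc
HLA-DMA (chr6:32953098-32953267, minus strand): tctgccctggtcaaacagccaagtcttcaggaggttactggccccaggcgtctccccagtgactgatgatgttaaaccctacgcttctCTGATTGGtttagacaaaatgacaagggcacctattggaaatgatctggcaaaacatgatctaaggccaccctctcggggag
HLA-DPA1 (chr6:33073650-33073819, minus strand): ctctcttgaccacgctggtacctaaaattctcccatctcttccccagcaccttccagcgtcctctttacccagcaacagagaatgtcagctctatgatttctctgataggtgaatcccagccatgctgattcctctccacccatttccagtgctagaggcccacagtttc
CD74 (chr5:150412911-150413080, minus strand): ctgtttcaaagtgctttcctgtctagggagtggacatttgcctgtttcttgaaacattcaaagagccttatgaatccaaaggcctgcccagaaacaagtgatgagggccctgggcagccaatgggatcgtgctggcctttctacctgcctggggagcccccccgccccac
The match to CTGATTGG began 57 to 52 bases before the start in HLA-F, HLA-B, HLA-C and B2M, and 82 bases before it in HLA-DMA. The match to TTTCNNTT lay 156 to 129 bases before the start in the same 4 class I genes, and in B2M 2 overlapping matches ran together. Over the 250 bases before each start, CTGATTGG was found in 5 of the 8 promoters of the 7 members with a RefSeq entry, and in 3.81% of all 35116 promoters. TTTCNNTT was found in 4 of the 8, and in 20.3% of all promoters. HLA-DPA1 has 2 starts in RefSeq, of which the second is shown, and neither window nor that of CD74 held a match. Only exact matches were counted, so that the lack of a match does not show that an element is absent. The CD74 window does hold the letters CCAAT. These matches are a description of letters, chosen with the sequences in view, and HLA-E and HLA-DRA have no entry.

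All members but B2M and CD74 lie in the MHC region of chromosome 6. On GRCh37, the build the authors name hg19, the class I genes are HLA-F (chr6:29690552-29706305, plus strand), HLA-E (chr6:30457286-30461971, plus strand), HLA-C (chr6:31236526-31239907, minus strand) and HLA-B (chr6:31321649-31334844, minus strand). The class II genes there are HLA-DRA (chr6:32407655-32412823, plus strand), HLA-DMA (chr6:32916390-32936871, minus strand) and HLA-DPA1 (chr6:33032346-33048552, minus strand). B2M is at chr15:45003556-45011049 on the plus strand and CD74 at chr5:149781200-149792532 on the minus strand. Reads were counted on exons without regard to strand, and reads on more than 1 gene were discarded. The class I chains are alike in sequence, HLA-F overlaps HLA-F-AS1 and RPL23AP1, and HLA-DPA1 overlaps HLA-DPB1 and RPL32P1, so that the split of reads between these genes is uncertain.

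Per kilobase of the canonical transcript, B2M was the most abundant member, with a mean of 469.5 CPM per kilobase over all libraries. HLA-C followed at 212, HLA-B at 162 and HLA-E at 38.3 CPM per kilobase, while HLA-F, a chain with a restricted role, was at 5.69. The class II members were far lower, at 1.10 CPM per kilobase for HLA-DPA1, 0.868 for HLA-DMA, 0.315 for CD74 and 0.222 for HLA-DRA. Among the 41357 symbols with at least 1 read, the mean CPM of B2M exceeded that of 99.3% and the mean CPM of HLA-DPA1 that of 66.8%. Counts per library were 11506 to 27704 reads for B2M and 6370 to 14258 for HLA-B, but 28 to 184 for HLA-DPA1, 11 to 76 for HLA-DMA, 8 to 44 for CD74 and 0 to 64 for HLA-DRA. Class II values therefore rest on few reads, and only large differences could be detected.

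**Figure D1:**
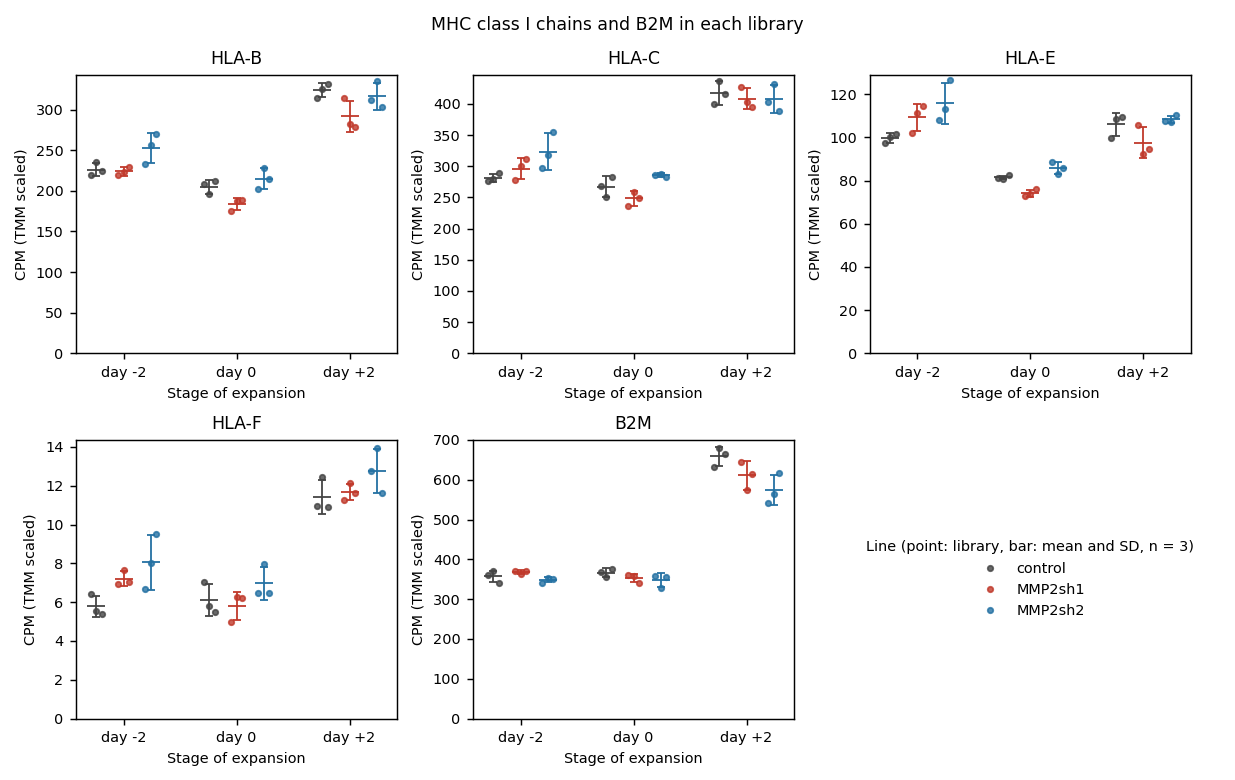
Level in CPM (y axis, from 0) of HLA-B, HLA-C, HLA-E, HLA-F and B2M in each library at each stage of the expansion (x axis), with points for libraries and bars for the mean and SD of 3. All 9 day +2 libraries lie above all 18 earlier libraries for B2M, HLA-B, HLA-C and HLA-F, while HLA-E is lowest at day 0 in each line. How many other genes separate in this way was not counted.

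The first question was how the class I genes changed as the control cells grew. B2M, the light chain shared by all class I molecules, was at 359.9, 369.6 and 341 CPM in the control libraries of day −2, at 368, 355 and 376 on reaching confluence and at 633, 679 and 664 after. The groups of day −2 and day 0 overlapped and both lay wholly below day +2. From day 0 to day +2 B2M rose by 1.83-fold (log2 fold change 0.87, standard error 0.04, adjusted p = 2.0e-16), after a log2 fold change of 0.04 (standard error 0.04, adjusted p = 0.47) from day −2 to day 0. HLA-F was at 5.38 to 6.40 CPM before confluence, 5.48 to 7.03 on reaching it and 10.9 to 12.4 after. It had the largest late rise of the 5 genes, with a log2 fold change of 0.93 (standard error 0.13, adjusted p = 7.7e-07).

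HLA-B and HLA-C, the classical heavy chains of the list, took the same course at a smaller size. HLA-B was at 219, 235 and 224 CPM before confluence, at 208, 196 and 212 on reaching it and at 315, 325 and 332 after. HLA-C had group means of 281 ± 6.61, 267 ± 16.7 and 418 ± 18.9 CPM (SD, n = 3) in the same order. From day 0 to day +2 their log2 fold changes were 0.68 and 0.67, each with a standard error of 0.05 and both called. HLA-E, whose product presents leader peptides of other class I chains to natural killer cells, went down before it went up. Its control libraries were at 97.4, 100.1 and 102 CPM before confluence, at 81.3, 80.6 and 82.4 on reaching it and at 99.9, 109 and 109.6 after. The 3 libraries of day 0 lay below all others, and HLA-E fell by 0.29 on the log2 scale to day 0 (standard error 0.05, adjusted p = 3.3e-05) and rose by 0.40 to day +2 (standard error 0.05, adjusted p = 1.8e-07). Over the whole expansion the HLA-E difference of 0.09 (standard error 0.05, adjusted p = 0.12) was not called, but it was called without control replicate 1 of day +2, at 0.13 (adjusted p = 0.034). HLA-B also fell to day 0, by 0.13 on the log2 scale (adjusted p = 0.022), a call lost without control replicate 2 of day −2 (−0.10, adjusted p = 0.14) or replicate 2 of day 0 (−0.10, adjusted p = 0.12).

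From day 0 to day +2, all 5 class I members were called higher in control, where 21.3% of the 19362 genes tested were called higher and 20.1% lower (41.4% in all). None of the 4 class II members was called in that comparison. From day −2 to day 0, 2 of the 8 members tested were called, both lower, where 16.4% of all genes were called higher and 19.1% lower (35.5% in all). From day −2 to day +2, 4 of the 5 class I members were called, all higher, and HLA-DRA, which entered this test only through its high day +2 libraries, made 5 of 9 members, where 28.1% of all genes were called higher and 28.6% lower (56.8% in all). The median log2 fold change of the 5 class I genes over the whole expansion was 0.58, and that of all genes tested 0.03.

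The same 4 class I genes rose over the expansion in both hairpin lines. B2M rose by 0.73 on the log2 scale in MMP2sh1 and 0.72 in MMP2sh2 (standard error 0.06 in each), beside 0.89 in control. HLA-F rose by 0.69 and 0.67, beside 0.98 in control, and HLA-C by 0.46 and 0.34, beside 0.58. HLA-B rose by 0.38 and 0.33, beside 0.52 in control. Each of these calls was kept whichever single library was omitted. HLA-E fell by 0.17 in MMP2sh1 (standard error 0.07, adjusted p = 0.043), a call lost without day −2 replicate 2 or 3 or day +2 replicate 2 or 3 of that line, at −0.13 to −0.16 with adjusted p of 0.11 to 0.19, and differed by −0.09 in MMP2sh2 (adjusted p = 0.24). In MMP2sh1, all 5 class I members were called, 4 higher and 1 lower, and with HLA-DRA, subject to the same limit, 6 of 9 members, where 27.3% of all genes were called higher and 27.7% lower (54.9% in all). In MMP2sh2, 5 of 8 were called, all higher, where 27.7% were called higher and 27.1% lower (54.7% in all).

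The log2 fold changes of the 5 class I members were all lower in the hairpin lines than in control, and whether they differed was tested as the interaction of line and day on 12 libraries. The interaction term was −0.11 to −0.28 on the log2 scale in MMP2sh1 and −0.17 to −0.31 in MMP2sh2. In neither line was any of the 9 members called by edgeR's quasi-likelihood test, where 7.40% of all genes were called in MMP2sh1 and 4.98% in MMP2sh2. At an unadjusted p under 0.05 there were 2 members in MMP2sh1 (B2M and HLA-E) and 4 in MMP2sh2 (B2M, HLA-B, HLA-C and HLA-E). DESeq2 called 1 member in each line. These were HLA-E in MMP2sh1 (−0.26, adjusted p = 0.031) and HLA-C in MMP2sh2 (−0.25, adjusted p = 0.044). With edgeR, HLA-E had a term of −0.25 in MMP2sh1 (adjusted p = 0.076) and was called without MMP2sh1 replicate 1 of day −2 (−0.30, adjusted p = 0.030), MMP2sh1 replicate 1 of day +2 (−0.32, adjusted p = 0.020) or control replicate 1 of day +2 (−0.29, adjusted p = 0.044). HLA-C had a term of −0.23 in MMP2sh2 (adjusted p = 0.082) and was called without MMP2sh2 replicate 1 of day −2 (−0.29, adjusted p = 0.026).

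**Figure D2:**
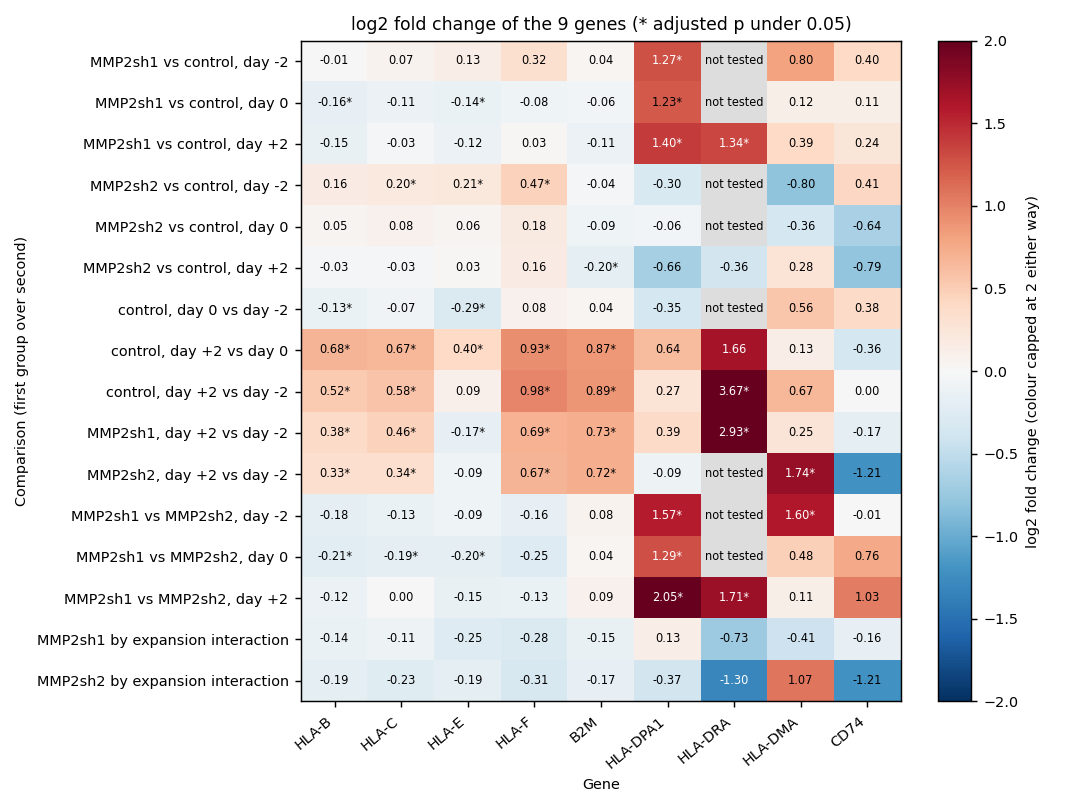
log2 fold change (colour and number) of each of the 9 genes (x axis) in each of the 16 comparisons (y axis), with an asterisk for an adjusted p under 0.05 and grey where the gene was not tested. The class I columns are coloured mainly in the expansion comparisons, and HLA-DPA1 in the comparisons of MMP2sh1 with control (1.27, 1.23 and 1.40) and with MMP2sh2.

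At a given day, the class I genes of the hairpin lines differed little from control. In MMP2sh1 at day −2, none of the 5 was called and HLA-DPA1 was the 1 member called of 8 tested, where 11.6% of all genes were called. At day 0, HLA-B was at 175, 187 and 189 CPM in MMP2sh1, below all 3 control libraries (196 to 212 CPM), a log2 fold change of −0.16 (standard error 0.04, adjusted p = 0.0064). This call was lost without MMP2sh1 replicate 1 (−0.13, adjusted p = 0.073). HLA-E was also lower at day 0, at 72.6 to 76.0 CPM beside 80.6 to 82.4 in control, with a log2 fold change of −0.14 (adjusted p = 0.049) that lost its call without any 1 of the 6 libraries (−0.13 to −0.15, adjusted p 0.062 to 0.16). At that day 3 of 8 members were called, HLA-DPA1 higher and HLA-B and HLA-E lower, where 8.26% of all genes were called higher and 8.58% lower (16.8% in all). HLA-C, at −0.11 (adjusted p = 0.085), was called at day 0 without control replicate 2 (−0.15, adjusted p = 0.010).

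At day +2 no class I gene was called in MMP2sh1. HLA-B stood at −0.15 (standard error 0.05, adjusted p = 0.051), B2M at −0.11 (adjusted p = 0.15) and HLA-E at −0.12 (adjusted p = 0.20). Replicate 1 of MMP2sh1 at day +2 was the highest of its group for HLA-B, HLA-C, HLA-E and B2M, and without it HLA-B (−0.21, adjusted p = 0.0036), HLA-E (−0.18, adjusted p = 0.032) and B2M (−0.15, adjusted p = 0.033) were called lower. HLA-B was also called without control replicate 1 (−0.17, adjusted p = 0.047) and in DESeq2 (−0.16, adjusted p = 0.022). Without MMP2sh1 replicate 1 of day −2, HLA-E was called higher at day −2 (0.18, adjusted p = 0.042), beside 0.13 with all libraries (adjusted p = 0.16).

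In MMP2sh2 at day −2, HLA-C, HLA-E and HLA-F were called higher than in control. HLA-C was at 297, 318 and 355 CPM beside 276, 279 and 289, HLA-E at 108, 113 and 126 beside 97.4 to 102, and HLA-F at 6.67 to 9.52 beside 5.38 to 6.40. None of the 3, picked by their calls, overlapped the control group, and the share of all genes without overlap was not counted. The log2 fold changes were 0.20 (adjusted p = 0.028), 0.21 (adjusted p = 0.023) and 0.47 (adjusted p = 0.041). Each call was lost when single libraries were left out. For HLA-C these were MMP2sh2 replicate 2 or 3 or control replicate 1 or 2 (0.13 to 0.21, adjusted p 0.061 to 0.13), for HLA-E MMP2sh2 replicate 3 or control replicate 1 or 2 (0.15 to 0.22, adjusted p 0.071 to 0.12), and for HLA-F MMP2sh2 replicate 2 or 3 or any of the control replicates (0.34 to 0.56, adjusted p 0.061 to 0.22). HLA-B, at 0.16 (adjusted p = 0.072), was called without MMP2sh2 replicate 1 (0.22, adjusted p = 0.025). These were 3 calls among 8 members, all higher, where 4.71% of all genes were called higher and 6.33% lower (11.0% in all).

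At day 0 in MMP2sh2 none of the 8 members tested was called by edgeR's quasi-likelihood test or by DESeq2, and B2M alone had an unadjusted p under 0.05, at a log2 fold change of −0.09 (adjusted p = 0.16), where 12.9% of all genes were called. At day +2, B2M was called, at 541, 565 and 616 CPM beside 633, 679 and 664 in control, without overlap. Its log2 fold change was −0.20 (standard error 0.05, adjusted p = 0.0070), and the call was lost without MMP2sh2 replicate 1 or 2 or control replicate 2 or 3 (−0.16 to −0.19, adjusted p 0.0501 to 0.15). This was 1 call among 9 members, where 6.32% of all genes were called.

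HLA-DPA1, the alpha chain of HLA-DP, set MMP2sh1 apart at all days. In MMP2sh1 it had 3.11, 3.17 and 3.32 CPM at day −2, 2.48, 2.71 and 2.14 at day 0 and 4.76, 4.27 and 3.54 at day +2. In control it had 1.71, 0.947 and 1.29 CPM, then 1.54, 0.881 and 0.682, then 2.44, 1.13 and 1.23. At each day the 3 MMP2sh1 libraries lay above all 3 control libraries. The log2 fold change was 1.27 at day −2 (standard error 0.26, adjusted p = 0.0019), 1.23 at day 0 (standard error 0.30, adjusted p = 0.0031) and 1.40 at day +2 (standard error 0.26, adjusted p = 0.00021). Omitting any single library kept the call at every day, with values of 1.01 to 1.82, and so did all 6 alternative fits.

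In MMP2sh2, HLA-DPA1 was at 1.54, 0.711 and 0.991 CPM at day −2, 0.895, 1.20 and 0.927 at day 0 and 1.06, 1.22 and 0.732 at day +2, overlapping control at every day. Its log2 fold changes to control were −0.30 (standard error 0.37), −0.06 (standard error 0.39) and −0.66 (standard error 0.35, adjusted p = 0.33), and none was called. The order of the 9 group means was MMP2sh1 at day +2 (4.19 ± 0.614 CPM, SD, n = 3), day −2 (3.20 ± 0.107) and day 0 (2.44 ± 0.288), followed by control at day +2 (1.60 ± 0.729). The other 5 groups were at 1.01 to 1.32 CPM, and the 6 control and MMP2sh2 groups did not differ from their neighbours in this order beyond their spread. Over the expansion HLA-DPA1 was called in no line, with log2 fold changes of 0.27 in control, 0.39 in MMP2sh1 and −0.09 in MMP2sh2.

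HLA-DPB1, the beta chain that pairs with HLA-DPA1 and overlaps it on the other strand, was at 0.167 to 0.731 CPM in group means. Its log2 fold changes in MMP2sh1 were 1.27 (standard error 0.67, adjusted p = 0.25), 0.13 (standard error 0.53) and 0.89 (standard error 0.54, adjusted p = 0.31), and none was called. LAPTM5, the only leukocyte marker with a group mean above 2 CPM, which encodes a lysosomal membrane protein of blood cells, moved with HLA-DPA1 between the lines, with log2 fold changes in MMP2sh1 of 1.44 (adjusted p = 0.022), 0.83 (adjusted p = 0.040) and 0.82 (adjusted p = 0.00061). It was the only leukocyte marker called in MMP2sh1, of 4, 3 and 2 tested at the 3 days. Of all genes, 11.6%, 16.8% and 14.8% were called there. CSF1R, which encodes a growth factor receptor of macrophages, was at 1.02 to 1.28 CPM in MMP2sh1 and 0.515 to 0.649 in control at day 0, and at 1.17 to 2.25 and 0.834 to 1.04 at day +2, without overlap on either day. Its log2 fold changes were 0.13 (adjusted p = 0.88), 0.98 (adjusted p = 0.098) and 0.79 (adjusted p = 0.13), not called. PTPRC, which encodes the leukocyte antigen CD45, was not called in MMP2sh1 at day −2 (0.56, adjusted p = 0.68) or day 0 (−1.12, adjusted p = 0.061). The summed level of the 12 leukocyte markers was 2.78 to 3.11 CPM in control and 4.22 to 4.74 in MMP2sh1 at day −2, 3.48 to 4.02 and 3.74 to 5.69 at day 0, and 4.81 to 5.84 and 7.59 to 9.03 at day +2. Without LAPTM5 it stayed within 1.41 to 3.79 CPM over all libraries, with the B cell marker MS4A1 without a read in 14 of the 27. The part of such cells in the HLA-DPA1 difference was not tested.

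**Figure D3:**
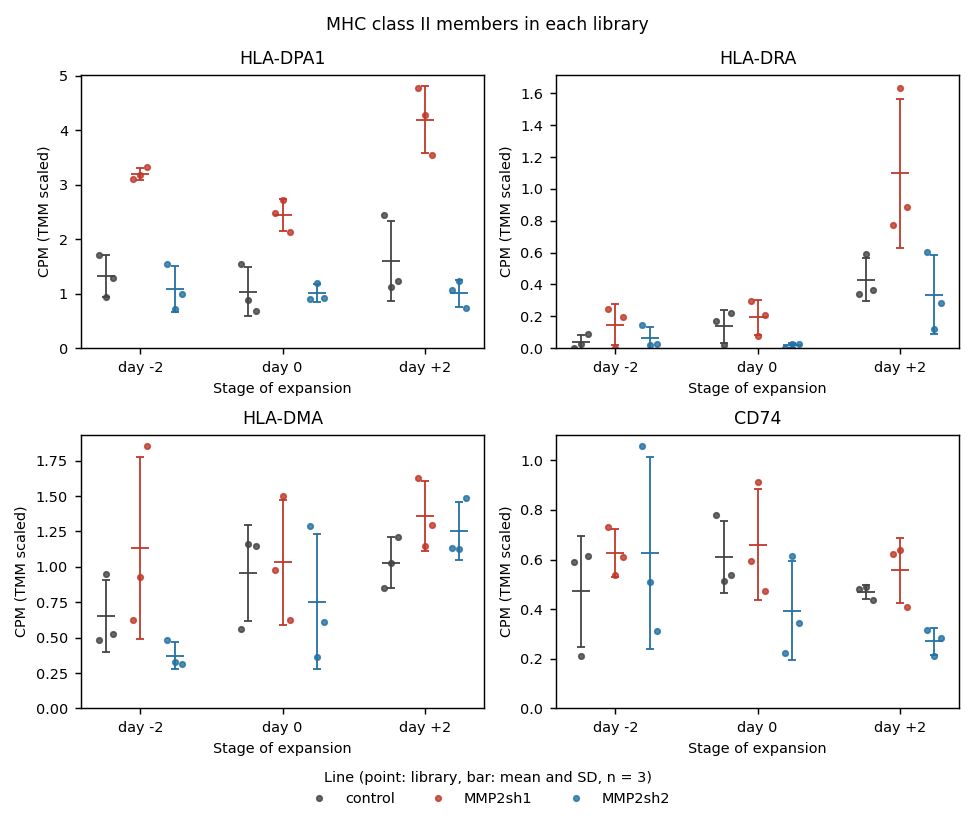
Level in CPM (y axis, from 0) of HLA-DPA1, HLA-DRA, HLA-DMA and CD74 in each library at each stage of the expansion (x axis), with points for libraries and bars for the mean and SD of 3. The MMP2sh1 points of HLA-DPA1 stand above the control points at every day, and HLA-DRA is highest at day +2.

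HLA-DRA, the alpha chain of HLA-DR, was nearly absent before day +2. In control it had 0, 1 and 3 reads at day −2, 8, 1 and 9 at day 0 and 12, 24 and 15 at day +2. In MMP2sh1 it had 9, 0 and 8 reads, then 18, 3 and 7, then 30, 64 and 37, and in MMP2sh2 6, 1 and 1, then 0, 1 and 1, then 25, 5 and 12. In control and MMP2sh1 the day +2 libraries lay above all earlier ones, whereas in MMP2sh2 1 library of day +2, with 5 reads, fell within the range of day −2. The ratio of summed reads per total, day +2 over day −2, was 15.7 in control (95% exact interval 5.76 to 59.7, 51 reads against 4), 8.58 in MMP2sh1 (5.16 to 15.2, 131 against 17) and 5.78 in MMP2sh2 (2.68 to 14.3, 42 against 8). These intervals cover counting error only.

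The filter on low counts kept HLA-DRA only in comparisons that hold day +2 libraries, so that a call upward over the expansion was favoured by the filter. Its log2 fold change over the expansion, 3.67 in control and 2.93 in MMP2sh1, is therefore given as a description, and it was not tested in MMP2sh2. At day +2, HLA-DRA was at 0.777, 1.64 and 0.886 CPM in MMP2sh1 and 0.340, 0.589 and 0.363 in control, a log2 fold change of 1.34 (standard error 0.46, adjusted p = 0.049). The groups did not overlap, but the call was lost without MMP2sh1 replicate 2 (0.94, adjusted p = 0.34), without MMP2sh1 replicate 3 or without any of the 3 control replicates (1.21 to 1.63, adjusted p 0.052 to 0.14). It was also lost in DESeq2 (1.34, adjusted p = 0.052), with replicate number as a block (1.32, adjusted p = 0.065) and with all 27 libraries in one fit (1.34, adjusted p = 0.33). With HLA-DPA1 this made 2 of 9 members called in MMP2sh1 at day +2, both higher, where 7.68% of all genes were called higher and 7.11% lower (14.8% in all). In MMP2sh2 HLA-DRA was at 0.605, 0.118 and 0.283 CPM at day +2, a log2 fold change of −0.36 to control (standard error 0.62, adjusted p = 0.84). LAPTM5 also rose over the expansion, by 2.59 on the log2 scale in control, 1.98 in MMP2sh1 and 2.14 in MMP2sh2, all called, and its part in the HLA-DRA difference was not tested.

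HLA-DMA and CD74, which serve peptide loading on class II molecules, were at 0.373 to 1.36 and 0.270 to 0.660 CPM in group means. HLA-DMA was at 0.482, 0.325 and 0.312 CPM in MMP2sh2 at day −2 and at 1.14, 1.13 and 1.49 at day +2, without overlap. This rise had a log2 fold change of 1.74 (standard error 0.46, adjusted p = 0.0019) and was kept whichever library was omitted (1.60 to 1.94). In control the HLA-DMA difference over the expansion was 0.67 (standard error 0.43, adjusted p = 0.19) and in MMP2sh1 0.25 (standard error 0.40, adjusted p = 0.62), and the interaction of 1.07 in MMP2sh2 was not called (standard error 0.60, adjusted p = 0.35). CD74 was called in none of the 16 comparisons. Its largest difference was over the expansion of MMP2sh2, from 1.06, 0.508 and 0.312 CPM at day −2 to 0.314, 0.212 and 0.283 at day +2, overlapping groups with a log2 fold change of −1.21 (standard error 0.61, adjusted p = 0.093). It was called without MMP2sh2 replicate 3 of day −2 (−1.53, adjusted p = 0.048).

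The hairpin lines were also compared with each other, since they share a target and the control libraries. HLA-DPA1 was higher in MMP2sh1 than in MMP2sh2 at every day, by 1.57 on the log2 scale at day −2 (standard error 0.29, adjusted p = 0.00050), 1.29 at day 0 (standard error 0.28, adjusted p = 0.00085) and 2.05 at day +2 (standard error 0.25, adjusted p = 4.3e-06), and the 3 libraries of each line did not overlap at any day. At day −2 HLA-DMA was also called, at 0.622, 0.927 and 1.85 CPM in MMP2sh1 (1.60, adjusted p = 0.045). The HLA-DMA call was lost without any of the MMP2sh2 replicates or MMP2sh1 replicate 2 or 3 (1.05 to 1.82, adjusted p 0.052 to 0.35). At day 0 HLA-B (−0.21), HLA-C (−0.19) and HLA-E (−0.20) were lower in MMP2sh1, calls that were kept whichever library was omitted. HLA-B was also called at day −2 without MMP2sh2 replicate 1 (−0.23, adjusted p = 0.045) and at day +2 without MMP2sh1 replicate 1 (−0.18, adjusted p = 0.046), and HLA-E at day +2 without the latter (−0.22, adjusted p = 0.029). At day +2 HLA-DRA was called at 1.71 (adjusted p = 0.049), a call lost without MMP2sh1 replicate 2 or 3 or MMP2sh2 replicate 2 or 3 (1.30 to 1.84, adjusted p 0.073 to 0.30). It was also lost with all 27 libraries in one fit (1.71, adjusted p = 0.24). The members called were 2 of 8, 4 of 8 and 2 of 9 at the 3 days, where 10.7%, 18.5% and 7.86% of all genes were called. MMP2 itself was lower in MMP2sh1 than in MMP2sh2 at the 3 days, by −1.84, −1.41 and −1.52 on the log2 scale.

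The wider pathway was read from lists of 69 further genes. Over the expansion of control, 34 of the 54 tested were called, 20 higher and 14 lower, with a median log2 fold change of 0.14. Of all genes, 28.1% were called higher and 28.6% lower (56.8% in all).

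Peptides are supplied by the constitutive proteasome and the immunoproteasome. Of the 5 immunoproteasome genes, whose products replace or activate parts of the constitutive particle, 4 were called higher over the control expansion and none lower, among them PSMB8 at 0.54 (standard error 0.06) and PSMB9 at 1.02 (standard error 0.10). In MMP2sh1 1 of the 5 and in MMP2sh2 2 of the 5 were called higher and none lower. All 6 genes of the constitutive particle were called lower in each of the 3 lines, by 0.28 to 0.69 on the log2 scale in control. Of all genes, 28.1% were called higher and 28.6% lower in control, 27.3% and 27.7% in MMP2sh1, and 27.7% and 27.1% in MMP2sh2. In MMP2sh1 the expansion change was smaller for PSMB8, with an interaction of −0.48 (standard error 0.09, adjusted p = 0.00085), and for PSMB9, with −0.59 (standard error 0.15, adjusted p = 0.013). In that line PSMB8 had a log2 fold change over the expansion of 0.05 (adjusted p = 0.57), and PSMB9 rose by 0.42. Relative to control, PSMB8 was higher at day −2 (0.25, adjusted p = 0.013) and lower at day +2 (−0.24, adjusted p = 0.0098), and in MMP2sh2 it was higher at day −2 (0.22, adjusted p = 0.029). In MMP2sh2 the interactions were −0.20 for PSMB8 (adjusted p = 0.23) and −0.18 for PSMB9 (adjusted p = 0.55), not called. PSME1, a subunit of the proteasome activator, which overlaps EMC9 and was named here after its values were seen, was the third gene of the list called in MMP2sh1 (−0.31, adjusted p = 0.0099) and the 1 called in MMP2sh2 (−0.44, adjusted p = 0.00067). Of all genes, 7.40% were called in the interaction of MMP2sh1 and 4.98% in that of MMP2sh2. PSME1 rose by 0.44 over the expansion in control, and was not called in MMP2sh1 (0.12, adjusted p = 0.090) or MMP2sh2 (−0.0023, adjusted p = 0.98).

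**Figure D4:**
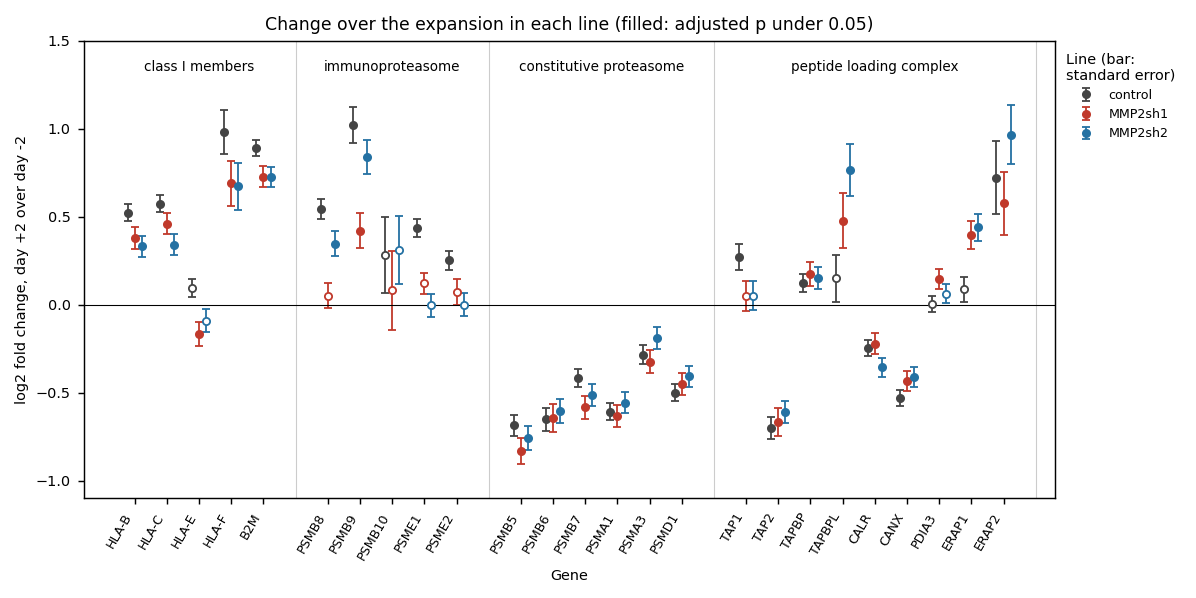
log2 fold change from day −2 to day +2 (y axis) of the genes of 4 lists (x axis) in each line, with bars for the standard error and filled points for an adjusted p under 0.05. PSMB8 and PSMB9 lie above 0 in control (0.54 and 1.02), and the constitutive proteasome genes lie below 0 in all 3 lines.

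The peptide loading genes showed no common direction, with 3 of 9 called higher and 3 lower over the control expansion. Of all genes, 28.1% were called higher and 28.6% lower. TAP2, a subunit of the peptide transporter, fell by 0.70 in control, 0.67 in MMP2sh1 and 0.61 in MMP2sh2, while its partner TAP1 rose by 0.27 in control and by 0.59 from day 0 to day +2. TAPBP, or tapasin, rose by 0.12 over the control expansion and by 0.48 from day 0 to day +2. In MMP2sh1 TAP1 was lower than control at day 0 (−0.31, adjusted p = 0.0058), and in MMP2sh2 TAP2 was higher at day 0 (0.40, adjusted p = 1.3e-06) and TAPBP at day +2 (0.18, adjusted p = 0.032).

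Of the 9 transcription regulators, 1 was called over the control expansion, where 56.8% of all genes were called. It was RFX5 at 0.45, a subunit of the factor that binds the X box of MHC promoters, named here after its value was seen. NLRC5 was at 17.3 ± 2.18 CPM at day −2 and 17.3 ± 1.66 at day +2 in control, with a log2 fold change of 0.01 (standard error 0.10, adjusted p = 0.96), and was lower in MMP2sh1 at day +2 (−0.31, adjusted p = 0.035). CIITA was at 0.515 to 1.04 CPM in group means and was called in none of the 16 comparisons. Of 10 genes listed under interferon gamma signalling, 5 were called higher and 1 lower over the control expansion. Of all genes, 28.1% were called higher and 28.6% lower. IRF9 (1.63) and STAT2 (1.12), parts of the factor that acts at interferon-stimulated response elements, had the largest changes of this list. IRF9 rests on 8 to 87 reads per library. IRF1 fell by 0.48 to day 0 and rose by 0.46 to day +2.

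Among the other class II chains, HLA-DQB1, the beta chain of HLA-DQ, was alone in reaching several CPM. Its control means were 2.19 ± 0.248 CPM before confluence, 3.62 ± 0.479 on reaching it and 13.4 ± 0.665 after (SD, n = 3), a log2 fold change of 2.62 over the expansion (standard error 0.14, adjusted p = 1.2e-14), beside 2.38 in MMP2sh1 and 2.13 in MMP2sh2. At day +2 it was higher than control in MMP2sh1 (0.38, adjusted p = 0.013) and lower in MMP2sh2 (−0.41, adjusted p = 0.018). HLA-DQB1 overlaps HLA-DQB1-AS1, and without strand their reads cannot be told apart. HLA-DRB1, which pairs with HLA-DRA, had at most 22 reads in a library, and HLA-DMB, the partner of HLA-DMA, at most 28. HLA-DRB1 was tested once against control, in MMP2sh1 at day +2 (0.26, standard error 0.68, adjusted p = 0.86), and HLA-DMB once, in MMP2sh1 at day −2 (1.59, standard error 0.72, adjusted p = 0.17). Of 6 class II processing proteases and reductases, 2 were called higher and 1 lower over the control expansion, where 28.1% and 28.6% of all genes were.

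The remaining lists held 6 class I-like molecules and 8 HLA pseudogenes, of which 4 and 3 were tested over the control expansion. Of these 4 and 2 were called, in each list as many higher as lower, where 56.8% of all genes were called. FCGRT, the heavy chain of the neonatal Fc receptor, which also pairs with B2M, rose by 1.38 in control, 1.18 in MMP2sh1 and 1.23 in MMP2sh2. The pseudogene HLA-V went the other way, with a fall of 2.65 in control, 3.07 in MMP2sh1 and 2.21 in MMP2sh2, and was higher in MMP2sh1 than in control at day −2 (1.14, adjusted p = 0.00072) and day 0 (2.34, adjusted p = 1.9e-05). Its reads may be shared with related HLA genes. No gene of the 69 was called with one sign at all 3 days in either hairpin line. The number called against control at day −2, day 0 and day +2 was 4, 12 and 15 in MMP2sh1, of 56, 54 and 56 tested. Of all genes, 11.6%, 16.8% and 14.8% were called there. In MMP2sh2 the number was 4, 7 and 7, of 54, 53 and 55 tested, where 11.0%, 12.9% and 6.32% of all genes were called.

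The genes whose group means ran most like those of a member were taken by Pearson correlation of the mean log2(CPM + 0.5) over the 9 groups, among 15136 genes with at least 1 CPM. For HLA-DPA1 these were ENDOD1 (r = 0.97), IL1RAPL1 (r = 0.94) and ELOVL5 (r = 0.94). For B2M they were PTGIS, VGLL4 and CX3CL1 (r = 0.995 to 0.997), each higher at day +2 than at earlier days in all lines. For CD74 they were NT5DC2 (r = 0.91), MAGEA11 (r = 0.90) and KIAA0391 (r = 0.89). The means of CD74 and HLA-DPA1 rest on few reads, 8 to 44 and 28 to 184 per library. The 9 points share libraries, scaling and the course of the expansion, and the values are the highest among many and are given as a description.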

How the data were processed

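RNA-Seq was done by the authors on poly(A) RNA of 3 U2OS lines at 3 days, 3 libraries each. Per the labels and the study's methods, reads were trimmed with Trim Galore 0.6.0, aligned to hg19 with STAR 2.7.3a and counted on exons with HTSeq 2.0.0 without strand. The annotation release is not given in the sources used here. The deposited files hold raw counts, 1 row per gene symbol, and 14525 of 55882 symbols have no read. HTSeq summary lines, which name no gene, held 16.8% to 19.1% of each file and were left out.

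Every comparison used only its own 6 libraries (12 for interactions). All genes passing filterByExpr (min.count 10 and min.total.count 15) were scaled by TMM and tested by quasi-likelihood F in edgeR 4.0.16 (R 4.3.3). The p-values were adjusted over all of them by Benjamini-Hochberg, and called below 0.05. The standard error is the log2 fold change divided by the square root of F. Levels are CPM with TMM factors over 27 libraries. Lengths and positions are from GENCODE 44 on GRCh37, and promoters from RefSeq on GRCh38.p14. The fits were tested on simulated data. Alternatives were DESeq2 1.42.0, other scaling, filters, a replicate block, all libraries in one fit and each library left out.

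The members and lists were chosen with earlier results of these data known. Genes named were the 9 members, MMP2, 13 regulators or partners, the 5 listed genes with the largest called change over the control expansion, and any called with one sign at all days of a hairpin line. LAPTM5, other markers, RFX5 and PSME1 were named after values were seen. Some of the genes under this rule are not reported here. No library was a duplicate of another of its group, since chi-square per degree of freedom was 4.58 to 22.17 for the 27 pairs within groups. Pairs across groups were not compared in this way.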

Additional observations from a re-analysis of the deposited data

Results flagged for a closer look

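Differences between the 2 hairpin lines, relative to the same control and tested directly between them, were found for 8 values of the members. The members tested were 8, 8 and 9 at the 3 days, where 10.7%, 18.5% and 7.86% of all genes were called. HLA-DPA1 was higher in MMP2sh1 than in MMP2sh2 at day −2 (log2 fold change 1.57, adjusted p = 0.00050), day 0 (1.29, adjusted p = 0.00085) and day +2 (2.05, adjusted p = 4.3e-06). HLA-DMA at day −2 (1.60, adjusted p = 0.045) and HLA-DRA at day +2 (1.71, adjusted p = 0.049) differed in the same direction, close to the threshold and with few reads. With 1 library omitted, the HLA-DMA call was kept in 1 of 6 fits and the HLA-DRA call in 2 of 6. At day 0 HLA-B (−0.21, adjusted p = 0.00039), HLA-C (−0.19, adjusted p = 0.00038) and HLA-E (−0.20, adjusted p = 0.0041) were lower in MMP2sh1.

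The change over the expansion differed between MMP2sh1 and control, by the interaction of line and day, for PSMB8 (−0.48, adjusted p = 0.00085) and PSMB9 (−0.59, adjusted p = 0.013), subunits of the immunoproteasome, and for PSME1 (−0.31, adjusted p = 0.0099), a subunit of its activator. It differed between MMP2sh2 and control for PSME1 (−0.44, adjusted p = 0.00067). Of all genes, 7.40% were called in the interaction of MMP2sh1 and 4.98% in that of MMP2sh2.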

How the results depend on the processing

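Over the 1722 values of single members under other settings, 1593 kept their direction and their side of the threshold, 54 lost a call, 29 gained one, 46 uncalled values changed sign and 0 called values did. By the count of members called, MMP2sh1 against control at day +2 (2 members) had 1 with all 27 libraries in one fit, MMP2sh1 against MMP2sh2 at day +2 (2 members) had 1 in that fit and 1 where every library had to hold 10 counts or more, and the interaction in MMP2sh1 (0 members) had 1 with DESeq2, under that same count minimum and in the fit of all libraries. The interaction in MMP2sh2 (0 members) had 1 with DESeq2. Only the larger changes in the counts of calls are listed here and below. Among the smaller ones, in MMP2sh1 against control, HLA-E at day 0 (called as reported) was called in 3 of 6 alternative fits. HLA-B at day +2 (not called as reported) was called in 4 of 6. The cause of these changes was not tested.

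With single libraries omitted, the members called ran from 1 to 2 (1 as reported) in MMP2sh1 against control at day −2, then 1 to 3 (3) and 1 to 5 (2) on the later days, from 0 to 4 (3) in MMP2sh2 at day −2 and 0 to 1 (1) at day +2, from 1 to 2 (2) in control from day −2 to day 0, from 1 to 2 (2) between the hairpin lines at day −2 and 1 to 4 (2) at day +2, and from 0 to 1 (0) in both interactions. The genes called ran from 1321 to 2274 (2184) in MMP2sh1 at day −2, from 728 to 1743 (2080), 1509 to 2257 (2456) and 679 to 1440 (1222) in MMP2sh2 at the 3 days, from 1208 to 1946 (2009) and 885 to 1625 (1527) between the hairpin lines at day −2 and day +2, and from 934 to 1682 (1520) and 541 to 1214 (1029) in the interactions of MMP2sh1 and MMP2sh2.

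Replicate numbers do not pair the samples. Deviations from group means correlated at −0.14 to 0.19 over 108 pairs with the same number, with 5 above 0.1, and at −0.17 to 0.21 over 216 pairs with other numbers, with 10 above 0.1. With the replicate block, MMP2sh1 against control at day +2 had 1 member called in place of 2. Class II values rest on 0 to 184 reads per library, which limits what could be detected.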
